A study of Mus musculus with 8 samples.

Results

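Macrophages and other leukocytes are a small population of the embryonic heart, and their transcripts were followed here through 35 genes chosen by name, all of which were found among the 27179 genes counted. The genes encode complement C1q chains, macrophage receptors, Fc receptors with their adaptors, leukocyte integrins and membrane proteins, lysosomal and effector proteins, cytoskeletal and signalling proteins of blood cells, 2 transcription factors and 1 chemokine. Bulk RNA sequencing was done on whole E10.5 hearts of mouse embryos, in mid-gestation. The wild-type group, Kat6a+/+ and labelled MOZ WT, held 5 hearts and is called Kat6a WT here. The mutant group, Kat6a-/- and labelled MOZ KO, held 3 hearts that by this genotype carried no wild-type allele and is called Kat6a KO. Kat6a, or Moz, encodes a histone acetyltransferase. No source used here gives the strain, the litter, the part of the gene removed or the way it was removed. Nothing in the labels limits the loss to one cell type.

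The first macrophages of the mouse embryo arise from yolk sac progenitors, before blood formation in the liver, and spread through the tissues, the heart among them. They are known for clearing dying cells and cell debris, and they depend on signalling through the growth factor receptor encoded by Csf1r. Their genes are switched on by the transcription factor PU.1, encoded by Spi1, while Runx1 acts earlier, when blood cells emerge from endothelium. Kat6a protein is known to bind both factors as a coactivator and is required for blood stem cells.

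Depth was 19911803 to 34539787 counts per heart. Values are CPM, the usual unit of read counts scaled to library size, and group values are means ± SD (n = 5 wild-type and n = 3 mutant hearts). Values of single hearts are given in the order of their replicate numbers. A count of 3 reads equals 0.0869 to 0.151 CPM in these libraries, so members under about 1 CPM rest on few reads. The whole-gene count of Kat6a itself was 138 to 156 CPM in Kat6a WT and 133 to 141 CPM in Kat6a KO and does not check the labels, since which exons were removed is not given. Heart muscle markers were abundant, with 2505 ± 99.0 CPM for the troponin gene Tnnt2 in Kat6a WT. Xist, the RNA that coats the silenced X chromosome in females, stood at 307 and 301 CPM in Kat6a WT replicates 4 and 5 while the other 6 hearts, all 3 Kat6a KO hearts among them, reached 0.372 CPM or less.

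In Kat6a KO hearts, transcripts of a subset of the macrophage genes were called higher. Of the 35 members, 32 were abundant enough to be tested. Of these, 10 rose (Adgre1, C1qa, Fcgr3, C1qb, Itgal, Csf1r, Pik3r6, Cyth4, Mrc1 and Laptm5), 1 fell (Dock2) and 21 did not pass the threshold of 0.05 on p-values that were adjusted over all 15086 genes tested (Benjamini-Hochberg, quasi-likelihood test of edgeR). Among all genes tested, 403 or 2.67% passed, with 1.44% higher and 1.23% lower in Kat6a KO. The 3 members under the count filter were Timd4, Cd14 and Aif1. A fit that kept them called 9 members higher and 1 lower out of 35, Csf1r being the one lost. The median log2 fold change over the 32 tested members was 0.96, with 28 above 0, beside a median of -0.00015 over all genes tested, of which 7535 lay above 0. The members and the further lists below were chosen with earlier results of these data known. The contrast with all genes therefore describes the members and is no test of them. In whole hearts, more cells of a type and more RNA per cell cannot be told apart.

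**Figure D1:**
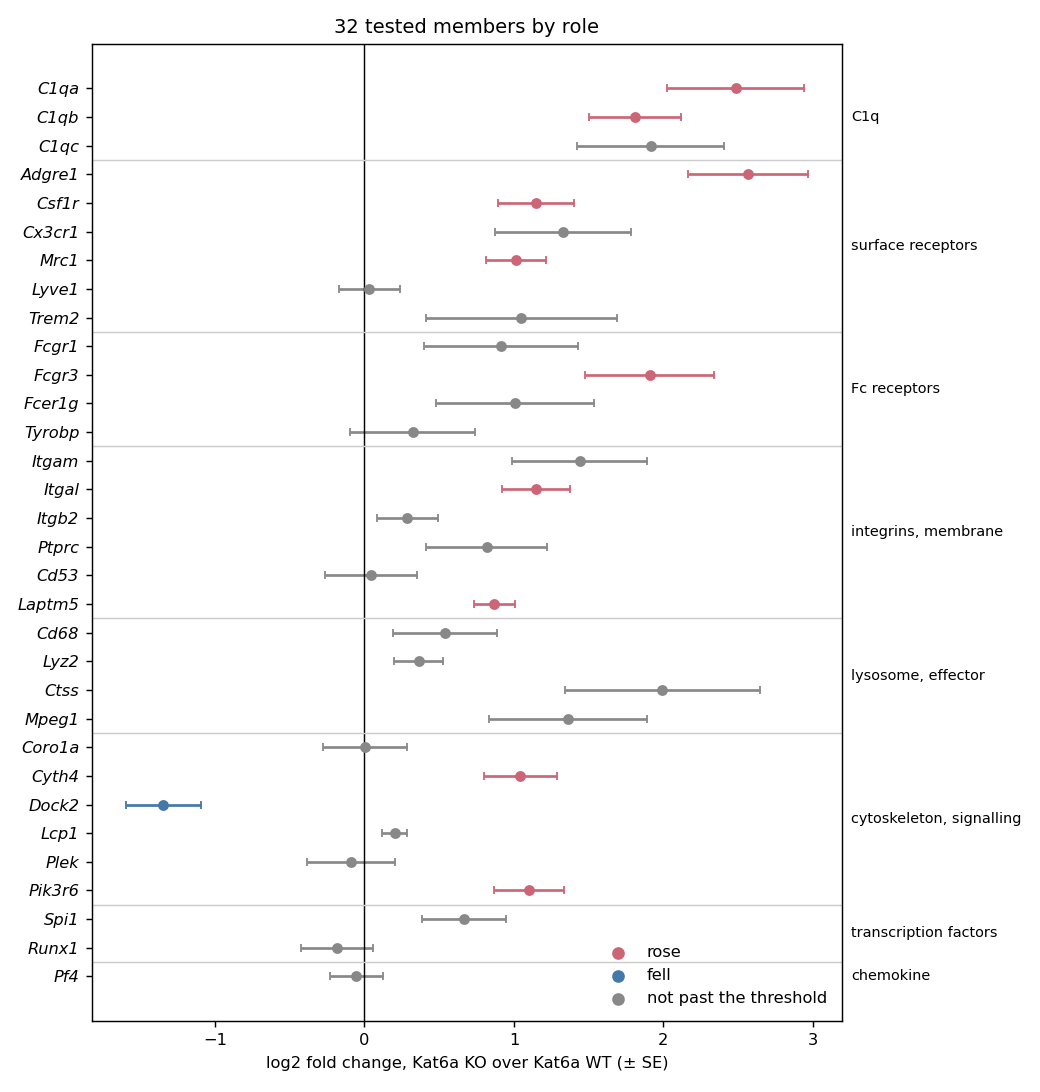
Log2 fold change (Kat6a KO over Kat6a WT, x axis, point ± SE from the edgeR quasi-likelihood fit) for each of the 32 tested members (y axis), ordered by role, with members that rose in red, the member that fell in blue and the others in grey. Adgre1 and C1qa lie farthest to the right, while Lyve1, Cd53, Coro1a, Plek, Runx1 and Pf4 lie near 0 and Dock2 lies to the left of it.

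The sequence before the start of several members is shown because these genes moved in different directions while sharing a short motif. RefSeq promoters (GRCm38.p6) were found for 25 of the 35 members. Among the genes that rose, none was found for Adgre1, C1qa, Itgal, Csf1r and Pik3r6. In the 250 bases before each start, the letters GAGGAA, part of the site that PU.1 and other Ets factors bind, or the reverse TTCCTC, occurred in 18 of 30 promoters of members and in 23.3% of 32851 promoters of all genes. The letters TGTGGT, a Runx core, or the reverse ACCACA occurred in 4 of the 30 and in 14% of all. Counted by gene, 17 of the 25 members held GAGGAA or TTCCTC. Members that did not pass, such as Cd68, Plek and Pf4, were among them, as were members that rose. A match is a description of the letters and not a binding site. The windows of C1qb (chr4:136886201-136886450, minus strand), Laptm5 (chr4:130913066-130913315, plus strand) and Mrc1 (chr2:14229164-14229413, plus strand), which rose, and of Dock2 (chr11:34783906-34784155, minus strand), which fell, are given 5′ to 3′ on the strand of the gene, with GAGGAA or TTCCTC in capitals.
C1qb: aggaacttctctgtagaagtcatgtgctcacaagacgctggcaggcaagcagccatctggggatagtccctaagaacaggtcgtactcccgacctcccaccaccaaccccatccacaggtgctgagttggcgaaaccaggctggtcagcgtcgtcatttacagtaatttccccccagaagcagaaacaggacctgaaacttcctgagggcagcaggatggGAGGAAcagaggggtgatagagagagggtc
Laptm5: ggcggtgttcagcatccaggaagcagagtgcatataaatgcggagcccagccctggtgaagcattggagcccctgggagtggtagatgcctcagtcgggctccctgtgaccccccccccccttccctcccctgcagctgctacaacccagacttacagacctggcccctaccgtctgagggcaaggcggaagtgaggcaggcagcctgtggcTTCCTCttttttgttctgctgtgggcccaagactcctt
Mrc1: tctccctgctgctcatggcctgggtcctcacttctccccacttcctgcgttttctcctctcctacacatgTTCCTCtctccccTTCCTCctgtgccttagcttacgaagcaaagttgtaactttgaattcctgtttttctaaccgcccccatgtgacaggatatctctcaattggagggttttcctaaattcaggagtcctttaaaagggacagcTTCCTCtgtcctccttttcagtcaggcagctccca
Dock2: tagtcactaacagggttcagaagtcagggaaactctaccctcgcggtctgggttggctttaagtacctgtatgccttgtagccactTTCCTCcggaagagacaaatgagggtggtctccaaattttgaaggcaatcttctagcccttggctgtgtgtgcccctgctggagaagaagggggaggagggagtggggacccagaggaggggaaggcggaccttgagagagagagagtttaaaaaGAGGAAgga
C1qb and Laptm5 each held 1 match, starting 30 and 38 bases before the transcript start. For Laptm5 this start and its window lie inside the gene, which spans 130912890 to 130936148 in RefSeq (GRCm38.p6). Mrc1 held 3, the nearest 35 bases before it, and Dock2 held 2, at 164 and 9 bases. Cyth4, which also rose, had no match to either motif in its window.

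The complement chains were among the largest changes. C1q, the recognition molecule of the classical complement pathway, is built from 3 chains whose genes lie side by side on chromosome 4 (GRCm38.p6: C1qb at 136880126 to 136886200, C1qc at 136889801 to 136892936, C1qa at 136895916 to 136898844). C1qa had 0.135, 1.10, 0.435, 0.522 and 0.121 CPM in Kat6a WT and 2.37, 2.29 and 2.83 CPM in Kat6a KO. C1qb had 0.710, 1.10, 0.783, 0.609 and 0.767 CPM in Kat6a WT and 1.71, 2.59 and 4.09 CPM in Kat6a KO. For both genes every Kat6a KO heart lay above every Kat6a WT heart. The log2 fold change was 2.48 ± 0.46 (SE) for C1qa and 1.81 ± 0.31 for C1qb (edgeR, adjusted p = 0.00602 and 0.00178). The neighbouring C1qc reached 2.51 and 3.24 CPM in Kat6a KO replicates 1 and 3 but 0.762 CPM in replicate 2, below the 1.196 CPM of Kat6a WT replicate 2, so the groups overlapped. Its log2 fold change of 1.91 ± 0.49 did not pass (edgeR, adjusted p = 0.0589). In Kat6a KO replicate 2 the raw counts were 45 for C1qa, 51 for C1qb and 15 for C1qc.

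Of 6 tested surface receptors of macrophages 3 rose, and all 6 had a log2 fold change above 0. Adgre1 encodes the antigen F4/80, the standard surface marker of mouse macrophages. It had 0.101, 0.718, 0.522, 0.435 and 0.202 CPM in Kat6a WT and 2.21, 2.29 and 2.47 CPM in Kat6a KO. The 3 Kat6a KO hearts differed little from each other, and Adgre1 rose 5.92-fold (log2 fold change 2.57 ± 0.40, edgeR adjusted p = 0.000805). Csf1r, the receptor of the macrophage growth factors, had 2.84, 7.32, 4.06, 3.87 and 3.43 CPM in Kat6a WT and 7.63, 10.1 and 10.7 CPM in Kat6a KO. The groups did not overlap, but Kat6a WT replicate 2 lay close to Kat6a KO replicate 1. Csf1r rose by 1.15 ± 0.26 on the log2 scale (edgeR, adjusted p = 0.0400), and this call was lost on leaving out any of 6 of the 8 single hearts (adjusted p up to 0.152) or both hearts with Xist RNA (0.193). In the GENCODE annotation 873 exonic bases of Csf1r (15.1%) also belong to Hmgxb3 on the opposite strand, which stood at 65.8 ± 3.08 and 64.8 ± 1.93 CPM in the 2 groups.

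Mrc1, the mannose receptor, had 2.40, 2.97, 4.38, 3.22 and 2.66 CPM in Kat6a WT and 4.92, 6.40 and 7.82 CPM in Kat6a KO. It rose by 1.01 ± 0.20 (edgeR, adjusted p = 0.00630), and the call was lost without Kat6a KO replicate 3 (0.0719). Lyve1, a hyaluronan receptor that marks lymphatic endothelium as well as tissue macrophages, did not move with these genes. It had 2.63 to 5.04 CPM in Kat6a WT and 3.48 to 4.98 CPM in Kat6a KO, with a log2 fold change of 0.03 ± 0.20 that turned below 0 under 4 of 19 alternatives (-0.09 to -0.03). The fractalkine receptor gene Cx3cr1 went from 1.67 ± 1.19 to 4.16 ± 0.699 CPM without passing (log2 fold change 1.33 ± 0.45, edgeR adjusted p = 0.216). Its value in Kat6a WT replicate 2, 3.64 CPM, exceeded that of Kat6a KO replicate 1, 3.51 CPM. The lipid receptor gene Trem2 had 0 to 14 counts in a Kat6a WT heart and 10 to 12 in a Kat6a KO heart and did not pass (edgeR, adjusted p = 0.494). Timd4, a receptor for phosphatidylserine on dying cells, and Cd14, a coreceptor for bacterial lipopolysaccharide, were under the filter. Timd4 had 1, 1, 2, 2 and 0 counts in Kat6a WT and 8, 4 and 3 in Kat6a KO, and Cd14 had at most 6 counts in any heart.

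Among Fc receptors, which bind antibody on the phagocyte surface, Fcgr3 rose. It had 0.135, 0.574, 0.493, 0.565 and 0.161 CPM in Kat6a WT and 1.44, 1.07 and 1.80 CPM in Kat6a KO, with no overlap. Its log2 fold change was 1.91 ± 0.43 (edgeR, adjusted p = 0.0154), and leaving out Kat6a KO replicate 1, replicate 3 or both hearts with Xist RNA ended the call (adjusted p of 0.0827, 0.109 and 0.0513). Its relatives Fcgr2b and Fcgr4 had at most 3 and 11 counts in any heart. Fcgr1, the high-affinity receptor, had 0.91 ± 0.52 and Fcer1g, a signalling chain of Fc receptors, 1.01 ± 0.53 as log2 fold changes. Neither gene passed (edgeR, adjusted p = 0.450 and 0.422). The adaptor gene Tyrobp, whose product signals for Trem2, stood at 0.476 ± 0.0949 and 0.581 ± 0.221 CPM. Its log2 fold change was 0.32 ± 0.42 with all hearts and -0.07 without Kat6a KO replicate 1, which had 25 counts where the others had 9 and 10.

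All 6 genes of leukocyte membrane proteins had a log2 fold change above 0, and 2 of them rose past the threshold. Itgal, the alpha chain of the integrin LFA-1, had 1.32, 3.21, 2.87, 2.74 and 2.46 CPM in Kat6a WT and 4.45, 5.49 and 6.79 CPM in Kat6a KO. It rose by 1.15 ± 0.23 (edgeR, adjusted p = 0.00733), and the call was lost without Kat6a KO replicate 3 (0.0703). Laptm5, a lysosomal membrane protein of blood cells, had 7.34, 10.48, 9.19, 11.7 and 7.19 CPM in Kat6a WT and 16.2, 16.8 and 17.2 CPM in Kat6a KO. Per length it was the most abundant of the genes that rose, and it rose by 0.87 ± 0.14 with no overlap between the groups (edgeR, adjusted p = 0.00116). Itgb2, whose product pairs with both alpha chains Itgal and Itgam, stood at 3.04 ± 0.653 and 3.70 ± 0.493 CPM and did not pass (log2 fold change 0.29 ± 0.21, edgeR adjusted p = 0.583). Itgam, the alpha chain of Mac-1, had 1.44 ± 0.45 with an adjusted p of 0.111 (edgeR). In GENCODE 68.7% of its exonic bases are shared with the gene Gm49368 on the same strand. Ptprc, encoding the common leukocyte antigen CD45, had 10 to 30 counts in Kat6a WT hearts and 17 to 47 in Kat6a KO hearts (0.82 ± 0.41, edgeR adjusted p = 0.372). The tetraspanin gene Cd53 stood at 1.28 ± 0.182 and 1.33 ± 0.488 CPM, and its log2 fold change of 0.04 ± 0.31 lay below 0 under 3 alternatives.

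None of the 4 lysosomal and effector genes passed. Lyz2, the macrophage lysozyme, was the highest of all members per length, with 16.9 and 21.7 RPKM (CPM per kilobase of gene length) in the wild-type and mutant groups. Its CPM ranged from 12.7 to 23.7 in Kat6a WT hearts and from 21.6 to 25.3 in Kat6a KO hearts (log2 fold change 0.36 ± 0.16, edgeR adjusted p = 0.346). Its close paralog Lyz1 stood at 4.21 ± 0.711 and 4.71 ± 0.574 CPM, and how reads common to both were counted is not given. Ctss, a lysosomal cysteine protease of antigen-presenting cells, had 0, 24, 12, 9 and 10 counts in Kat6a WT and 47, 22 and 56 in Kat6a KO. A count of 0 in Kat6a WT replicate 1 allows up to 0.101 CPM. The fitted change of Ctss, 1.99 ± 0.65, was as large as that of C1qc, and it did not pass (edgeR, adjusted p = 0.175). Mpeg1, which encodes the pore-forming protein perforin-2, and the endosomal glycoprotein gene Cd68 had 1.36 ± 0.53 and 0.54 ± 0.35 (edgeR, adjusted p = 0.245 and 0.528).

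Cytoskeletal and signalling genes of blood cells moved in both directions. Pik3r6, a regulatory subunit of the gamma isoform of phosphoinositide 3-kinase, had 1.32, 1.58, 1.30, 1.39 and 1.49 CPM in Kat6a WT and 2.44, 3.10 and 3.60 CPM in Kat6a KO. The Kat6a WT hearts were close together, and Pik3r6 rose by 1.10 ± 0.23 (edgeR, adjusted p = 0.0104), a call lost without Kat6a KO replicate 3 (0.0799). Pik3cg, the catalytic partner, stood at 1.92 ± 0.448 and 2.75 ± 0.278 CPM and did not pass (0.54 ± 0.24, edgeR adjusted p = 0.310). Cyth4, an exchange factor for Arf GTPases in blood cells, had 1.39, 2.78, 1.30, 2.74 and 2.10 CPM in Kat6a WT and 4.38, 3.71 and 4.41 CPM in Kat6a KO. It rose by 1.04 ± 0.24 (edgeR, adjusted p = 0.0210), and leaving out Kat6a WT replicate 3 or one of Kat6a KO replicates 1 and 3 ended the call, with adjusted p-values up to 0.123.

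Dock2, an exchange factor for the GTPase Rac that leukocytes need for migration, was the only member called lower. It had 2.87, 3.35, 3.83, 3.13 and 3.03 CPM in Kat6a WT and 1.10, 1.83 and 0.944 CPM in Kat6a KO. Every Kat6a KO heart lay below every Kat6a WT heart, and Dock2 fell by 1.35 ± 0.25 on the log2 scale (edgeR, adjusted p = 0.00347). It was the 1 tested member without overlap in this direction, which held for 4.81% of all genes tested. The call stood under all 19 alternatives (adjusted p up to 0.0370). Dock2 spans 34226815 to 34783905 on chromosome 11 (GRCm38.p6), and Insyn2b, at 34314822 to 34422642, lies within it. The count of Insyn2b did not pass: it was 4.61 ± 0.737 CPM in Kat6a WT and 6.49 ± 0.501 CPM in Kat6a KO (0.48 ± 0.16, edgeR adjusted p = 0.126). In GENCODE 460 exonic bases of Dock2 (4.03%) also belong to a gene on the opposite strand.

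The remaining genes of this set had small changes or few reads. Lcp1, the actin-bundling protein plastin, stood at 36.8 ± 4.34 and 42.3 ± 1.91 CPM (0.20 ± 0.08, edgeR adjusted p = 0.260). Coro1a, a leukocyte coronin that binds actin, had 2.77 to 7.23 CPM in Kat6a WT and 4.31 to 6.10 CPM in Kat6a KO, with a log2 fold change of 0.0024 ± 0.28 whose sign changed with the tool and with single hearts. Plek, encoding the platelet and leukocyte protein pleckstrin, had 13.6, 18.3, 20.5, 32.3 and 17.6 CPM in Kat6a WT and 18.2, 23.0 and 16.5 CPM in Kat6a KO. These ranges overlapped throughout (-0.09 ± 0.29). Aif1, encoding the calcium-binding protein Iba1, was under the filter with 1 to 6 counts in Kat6a WT hearts and 19, 1 and 12 in Kat6a KO hearts.

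Neither transcription factor passed. Spi1, the gene of PU.1, had 0.879, 1.00, 1.16, 1.00 and 1.13 CPM in Kat6a WT and 1.47, 1.83 and 1.66 CPM in Kat6a KO. The groups did not overlap, as held for 11 of the 32 tested members in this direction and for 4.77% of all genes tested. Its log2 fold change of 0.67 ± 0.28 did not pass (edgeR, adjusted p = 0.271). Runx1 had 1.79, 2.54, 2.38, 3.04 and 2.06 CPM in Kat6a WT and 2.04, 2.44 and 1.75 CPM in Kat6a KO. All 3 Kat6a KO values lay within the Kat6a WT range or just under it (-0.18 ± 0.24, edgeR adjusted p = 0.808). The chemokine gene Pf4, made by megakaryocytes and by fetal macrophages, had 7.24, 8.66, 7.80, 12.8 and 6.90 CPM in Kat6a WT and 8.56, 8.94 and 7.46 CPM in Kat6a KO (-0.06 ± 0.18, edgeR adjusted p = 0.933). Runx1, Plek and Pf4 each had their highest value in Kat6a WT replicate 4, the heart with the most megakaryocyte and red cell RNA.

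**Figure D2:**
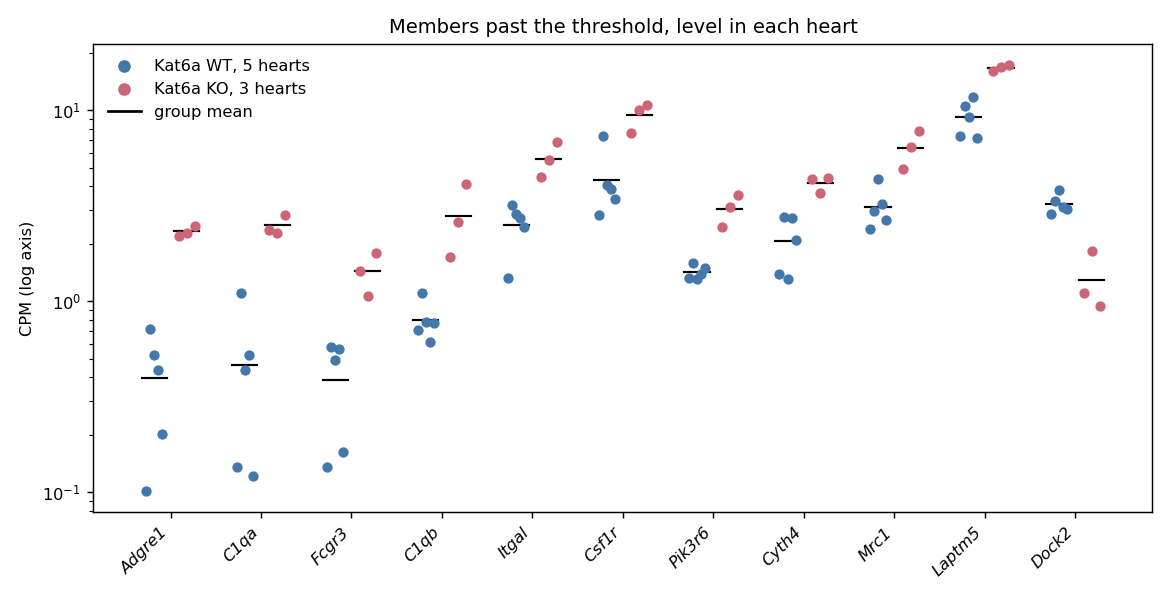
CPM (y axis, log scale) of the 10 members that rose and of Dock2, which fell (x axis), in each heart, with Kat6a WT in blue, Kat6a KO in red and the group mean as a black line. In each of the 11 genes the 3 Kat6a KO points lie clear of the 5 Kat6a WT points, with the narrowest gap for Csf1r.

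Levels compared per length placed the genes that rose in the middle and low range. In Kat6a WT hearts the most abundant members after Lyz2 were Pf4 with 14.8, Lcp1 with 8.49, Plek with 4.97 and Laptm5 with 3.83 RPKM. Of these, only Laptm5 rose. Csf1r stood at 1.11 and C1qb at 0.747 in the same unit, and Adgre1, at 0.122, was the fourth lowest of the 35. In Kat6a KO hearts C1qb, C1qa and C1qc stood at 2.63, 2.31 and 2.06, near Csf1r at 2.44.

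The hearts of a group were not alike. The mean over all 35 members of log2(CPM + 0.5) was 0.76, 1.41, 1.11, 1.19 and 0.96 in Kat6a WT and 1.61, 1.69 and 1.76 in Kat6a KO. Over the 25 members not called higher, Dock2 among them, this mean ran from 0.78 to 1.39 in Kat6a WT. In Kat6a KO it ran from 1.42 to 1.49, without overlap. Kat6a WT replicate 2 had the highest Kat6a WT value for 20 of the 35 members, 8 of them among the 10 that rose, and Kat6a WT replicate 1 the lowest for 18. Among Kat6a KO hearts, replicate 3 had the highest value of all 10 genes that rose and replicate 1 the lowest value of 7 of them.

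The erythroid list of 16 globin and red cell genes had its lowest mean log2 level in Kat6a WT replicates 1 and 2 (5.60 and 5.74) and its highest in replicate 4 (7.65), while Kat6a KO hearts lay between 6.08 and 6.88. The mean difference between the groups was -0.04 (exact permutation test, two-sided, p = 1, smallest possible p = 0.0357, n = 3 and n = 5). With this level as a covariate the same 10 members rose. The part of blood content in the result was not tested beyond these values. The megakaryocyte and platelet list spanned 1.89 to 2.85 in Kat6a WT hearts and 2.19 to 2.34 in Kat6a KO hearts. Genes of the immediate early and heat shock response, known to react to tissue handling, were high in 1 heart: their mean level was 4.26 in Kat6a KO replicate 1 and 3.40 to 3.70 in the other 7 hearts. That heart had the lowest Kat6a KO value of most members that rose, and without it 7 members rose (Csf1r, Cyth4 and Fcgr3 were lost). Over all genes, 103 rose without that heart and 217 with it. The part of this response in the result was not tested further.

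**Figure D3:**
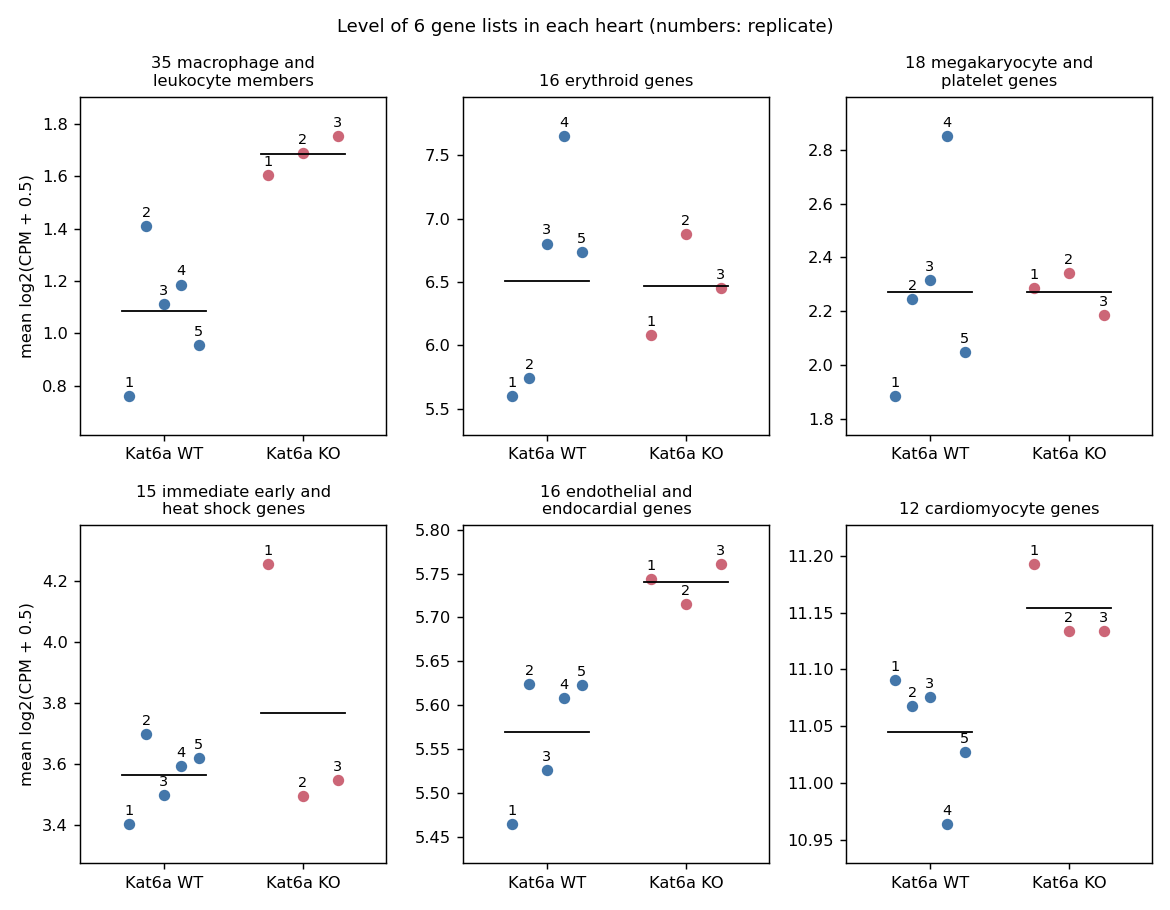
Mean log2(CPM + 0.5) of 6 gene lists (1 panel each, with its own y axis) in each heart, Kat6a WT in blue and Kat6a KO in red, with the replicate number at each point and the group mean as a line. The 3 Kat6a KO hearts lie above all Kat6a WT hearts in the panels of the 35 members, the endothelial and endocardial genes and the cardiomyocyte genes, and overlap with them in the other 3, where Kat6a KO replicate 1 stands apart for immediate early and heat shock genes.

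How many members passed varied with the hearts included, and so did the count over all genes. Over all genes, 217 rose with all 8 hearts, 300 without Kat6a WT replicate 2 and 144 without Kat6a KO replicate 3. Without Kat6a WT replicate 2, 16 members rose, the 10 above and C1qc, Ctss, Cx3cr1, Itgam, Lyz2 and Mpeg1. Without Kat6a KO replicate 3 only Adgre1, C1qa, C1qb and Laptm5 rose. These 4 passed in every one of the 19 alternatives, and their highest adjusted p-values were 0.0221, 0.0389, 0.0448 and 0.0151 in that order. Without the 2 hearts that had Xist RNA, 8 members rose and Dock2 fell, while 165 of all genes rose and 116 fell.

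**Figure D4:**
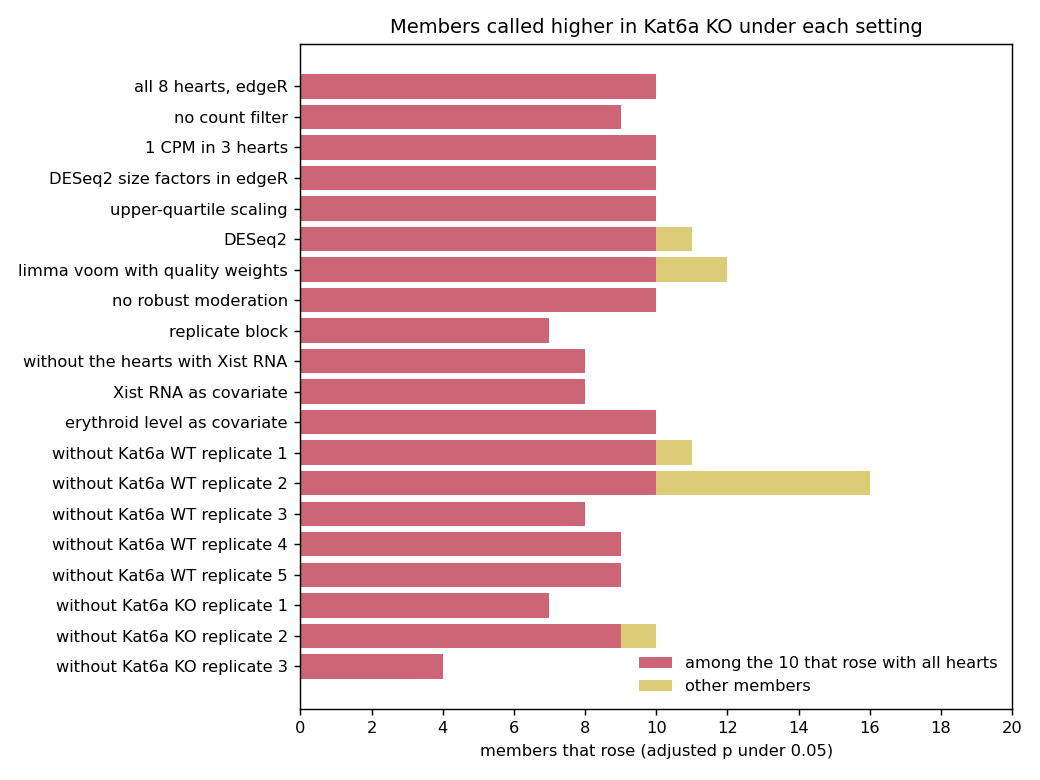
Number of members past an adjusted p of 0.05 with a higher level in Kat6a KO (x axis) for the fit to all 8 hearts and for each of the 19 alternatives (y axis), with members among the original 10 in red and other members in yellow. The count runs from 4 without Kat6a KO replicate 3 to 16 without Kat6a WT replicate 2.

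Further lists of blood, macrophage and heart genes were read in the same way. Those of progenitor, platelet and lymphatic genes each hold 1 member (Runx1, Pf4 and Lyve1). Of 50 other macrophage genes, 28 were tested, 6 rose, 0 fell and 22 did not pass, with a median log2 fold change of 0.15. C5ar1, the receptor of the complement fragment C5a, rose from 0.153 ± 0.105 to 1.05 ± 0.669 CPM (2.80 ± 0.59, edgeR adjusted p = 0.00981). Slc11a1, a metal transporter of the phagosome, rose from 0.214 ± 0.0270 to 0.904 ± 0.159 CPM (2.06 ± 0.42, edgeR adjusted p = 0.00809), and the scavenger receptor gene Msr1 by 2.41 ± 0.55 with 1 overlapping heart. The other 3 changed less: Cd36, a fatty acid transporter and scavenger receptor, rose by 0.44 ± 0.06, the receptor kinase gene Axl by 0.24 ± 0.05 and the lysosomal protease gene Ctsb by 0.23 ± 0.04. The 50 genes summed to 1557 to 1716 CPM in Kat6a WT hearts, where the 35 members summed to 107 to 162 CPM. Which cells these reads came from was not tested.

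Of 30 genes that signal below Fc receptors or shape the leukocyte cytoskeleton, 25 were tested and 3 rose, with 0 lower and a median of 0.27. Hcls1, an actin-binding adaptor of blood cells, rose from 2.90 ± 0.466 to 5.80 ± 0.208 CPM (0.99 ± 0.17, edgeR adjusted p = 0.00195). Inpp5d, the phosphatase SHIP1 that opposes phosphoinositide 3-kinase, rose by 0.58 ± 0.11, and Lsp1, an actin-binding protein of leukocytes, by 0.30 ± 0.07. Of the 6 subunits of the phagocyte NADPH oxidase, which makes superoxide, Cybb, the catalytic subunit, rose by 2.14 ± 0.53 (1 to 6 counts in Kat6a WT hearts, 13 to 21 in Kat6a KO hearts) and the other 5 did not pass. Of 8 tested genes on a list of growth factors, chemokines and other ligands of leukocyte receptors 0 passed in either direction. Csf1, a ligand of Csf1r, stood at 24.97 ± 2.73 and 27.3 ± 1.55 CPM (0.13 ± 0.09, edgeR adjusted p = 0.567), and those with the smallest p were Gas6, a ligand of Axl, at 0.16 ± 0.08 and Kitl, the ligand of Kit, at 0.12 ± 0.06. Of 4 tested complement components outside C1q, 0 passed. C3, the central component, stood at 0.422 ± 0.170 and 1.03 ± 0.387 CPM (1.25 ± 0.41, edgeR adjusted p = 0.130), and factor B, Cfb, had 0.22 ± 0.21.

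Of 16 tested myeloid transcription factors 1 fell and 0 rose, with a median of -0.0012: Irf5, a factor of inflammatory gene expression, fell by 0.47 ± 0.10, from 23.3 ± 0.803 to 16.8 ± 2.84 CPM (edgeR, adjusted p = 0.00794). Of 17 tested progenitor genes (16 without Runx1) 1 fell and 0 rose: Gata2, a factor of blood stem cells and endothelium, fell by 0.44 ± 0.08, from 23.1 ± 1.24 to 17.1 ± 0.540 CPM (edgeR, adjusted p = 0.00377). None of 16 tested erythroid or 17 tested megakaryocyte and platelet genes (16 without Pf4) passed, and their medians were -0.23 and -0.10. The smallest p-values were those of Klf1 (-0.37 ± 0.57) and Hbb-bs (0.36 ± 0.56) among erythroid genes and of Rab27b (-0.30 ± 0.15) and Treml1 (0.52 ± 0.27) among platelet genes. Of 7 tested lymphatic and sinusoidal endothelial genes (6 without Lyve1) 0 passed, with the smallest p-values for the scavenger receptor gene Stab2 (0.83 ± 0.30) and for Pdpn (-0.15 ± 0.09). Of 16 endothelial and endocardial genes 3 rose and 1 fell, with a median of 0.18 and 14 above 0. Robo4, a receptor of endothelial cells, rose by 0.93 ± 0.19, the junction gene Pecam1 by 0.20 ± 0.05 and the receptor gene Tie1 by 0.20 ± 0.05, while Npr3, a natriuretic peptide receptor of endocardium, fell by 0.49 ± 0.06. The mean log2 level of this list was 5.46 to 5.62 in Kat6a WT hearts and 5.72 to 5.76 in Kat6a KO hearts, without overlap. Of 12 cardiomyocyte genes 1 rose, the myosin light chain gene Myl3 (0.27 ± 0.06, edgeR adjusted p = 0.0105), and 9 lay above 0 with a median of 0.09. The mean log2 level of the cardiomyocyte list was 10.96 to 11.09 in Kat6a WT hearts and 11.13 to 11.19 in Kat6a KO hearts, again without overlap. The list of 50 other macrophage genes was also apart, at 1.51 to 1.71 and 1.79 to 1.93. The part that heart and endothelial RNA have in the results of the members was not tested.

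Several markers of other white cells had no reads. Of 21 lymphocyte genes 19 were under the count filter, and Cd3e, Cd3d, Ms4a1, Il7r, Ncr1 and Gzma had no read in any heart. The 2 tested, the kinase genes Lck (0.50 ± 0.33) and Zap70 (-0.26 ± 0.49), did not pass. The summed level of this list was 1.87 to 3.08 CPM in Kat6a WT and 2.64 to 5.13 CPM in Kat6a KO. Of 16 neutrophil and monocyte genes 13 were under the filter, with no read of Ly6c2 or Ly6g in any heart, and the 3 tested, Mpo, Prtn3 and Plac8, did not pass. Their summed level was 6.70 to 11.0 CPM in Kat6a WT and 8.70 to 10.8 CPM in Kat6a KO. Their mean log2 level was -0.48 to -0.38 in Kat6a WT hearts and -0.34 to -0.29 in Kat6a KO hearts, without overlap, and 7 to 8 of the 16 genes had a read in a Kat6a WT heart against 10 to 13 in a Kat6a KO heart. The part of such cells in the results of the members was not tested. The mast cell genes Tpsb2, Tpsab1 and Ms4a2 had no read in any heart, and the 2 tested of the 8 on that list, Hdc (0.33 ± 0.15) and Kit (-0.12 ± 0.11), did not pass. The summed level of the mast cell list was 21.9 to 28.02 CPM in Kat6a WT hearts and 23.7 to 25.5 CPM in Kat6a KO hearts.

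**Figure D5:**
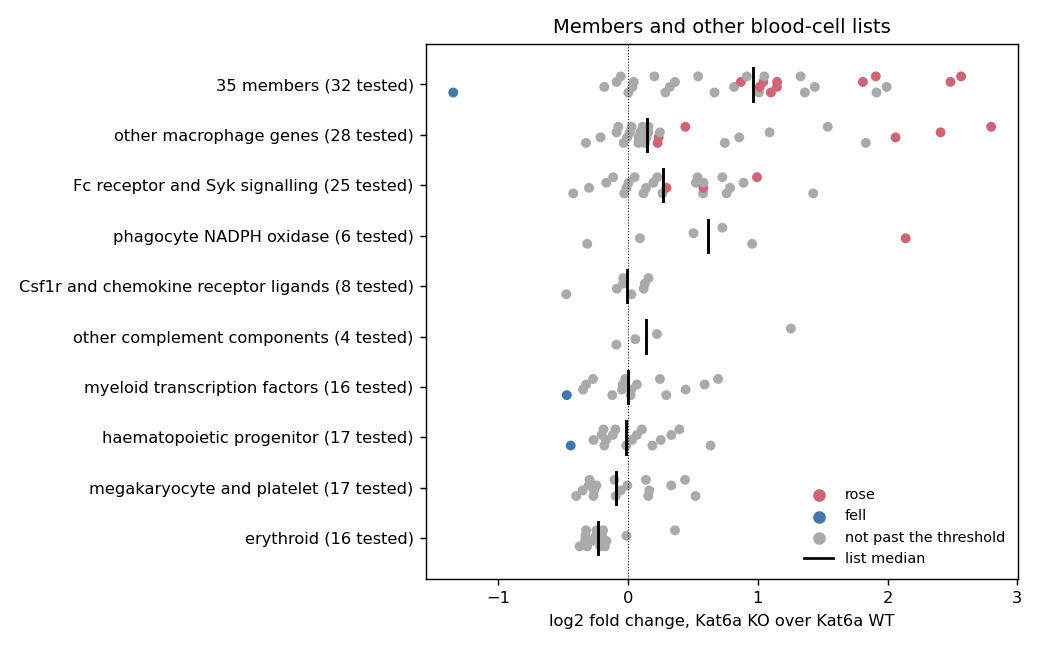
Log2 fold change (x axis, Kat6a KO over Kat6a WT) of each tested gene in the 35 members and in 9 further lists (y axis), red where the gene rose, blue where it fell and grey otherwise, with the list median as a black bar. The median is 0.96 for the members and lies between -0.23, for erythroid genes, and 0.62, for the phagocyte oxidase, in the other lists.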

How the data were processed

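Per the labels' protocols, total RNA from each heart was isolated with a column kit and a TruSeq stranded kit was used for the libraries. Per the submitters' processing notes, which name tools without their roles, the authors used bcl2fastq, featureCounts and the build mm10. No source used here gives versions, the aligner, the annotation or the strand setting. The authors deposited raw counts for each Entrez gene ID. The 8 deposited files of single hearts equal the series table, which was used. Symbols came from the RefSeq table of GRCm38.p6 (25275 of 27179 IDs matched; the rest held 1.05% of counts and stayed in the tests).

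Low counts were removed by the filterByExpr function of edgeR, given the groups, and library sizes were scaled by TMM. Genes were tested by quasi-likelihood in edgeR (robust moderation, no covariate, 5 Kat6a WT against 3 Kat6a KO) with Benjamini-Hochberg adjustment over all genes tested at 0.05, with edgeR 4.0.16 under R 4.3.3. Alternatives used DESeq2 1.42.0 and limma 3.58.1. The edgeR test was checked on simulated counts. SE was taken as the size of the log2 fold change divided by the root of its F statistic. The biological coefficient of variation was 9.10%, so spread between hearts limits abundant genes and counting error adds to it for genes near 1 CPM. Nothing states that the hearts came from separate litters, so p-values reflect only how much these hearts vary. Exon overlaps of the members were searched in GENCODE M21: 8 of the 35 share exonic bases with another gene.

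The members and lists were chosen with earlier results of these data known, and p-values are never adjusted over a list. RPKM used the gene lengths in the deposited table. Named genes were all members. Values in every heart were given for members past the threshold and for those tested with a log2 fold change of 0 or below. From each further list up to 4 called genes by smallest p were named, and otherwise as said beside them. Partners of some members by exon overlap, by position or as paralogs were also named. Whether reads of a member and its partner were counted together is not given. C5ar1, Msr1, Csf1, Pik3cg and Tnnt2 and the genes in the closing section fall outside this rule and were chosen after their values were seen. Alternatives were other filters, scalings and tools, covariates, a replicate block and leaving out hearts.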

Additional observations from a re-analysis of the deposited data

Results flagged for a closer look

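In the group of 5 Kat6a WT hearts, the level of Csf1r in replicate 2 stood apart from the other 4. It was 7.32 CPM, with the next highest heart at 4.06 CPM, and the gap to that heart was 0.728 of the whole range of the group, above the limit of 0.710 for 5 samples. All 35 members were examined in this way and 1 value passed the limit, where chance flags about 1 in 20 groups. The same heart had the highest Kat6a WT value of 20 members.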

How the results depend on the processing

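Of 605 values of single members under the 19 alternatives, 548 kept their direction and side of the threshold, 22 lost and 11 gained a call, and 24 changed sign, all of them in members that did not pass. Over all genes, 217 rose and 186 fell; the counts were 104 and 77 with a replicate block, 290 fell with DESeq2 and 116 fell without the hearts with Xist RNA. Leaving out single hearts gave 103 to 300 higher and 91 to 200 lower genes, and 4 to 16 members higher, with 1 lower each time. With the replicate block 7 members rose, without Cyth4, Fcgr3 and Pik3r6. Same-numbered hearts of the 2 groups correlated at -0.119 to 0.0659 in their deviations from the group means. Not every heart correlated best with its own number. These values cannot decide whether same-numbered hearts belong together, since no source used here gives the litter. Leaving out single hearts gave log2 fold changes of -0.092 to 0.19 for Lyve1, -0.067 to 0.47 for Tyrobp, -0.27 to 0.23 for Cd53, -0.17 to 0.16 for Coro1a, -0.24 to 0.13 for Plek and -0.13 to 0.12 for Pf4. Lyve1 had -0.031 and Pf4 0.012 with voom, and Coro1a -0.0023 with DESeq2. With the block, without the hearts with Xist RNA and with Xist RNA as a covariate, Plek had 0.15, 0.14 and 0.14 and Pf4 0.077, 0.079 and 0.085. The cause was not tested. Depth limits members under about 1 CPM.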

Other observations

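Some macrophage genes under the count filter had more reads in Kat6a KO hearts. They were chosen after their values were seen and were not tested. Siglec1, a sialic acid receptor of macrophages, had 0, 2, 0, 0 and 2 counts in Kat6a WT and 13, 11 and 9 in Kat6a KO, in the order of replicate numbers. Clec12a, an inhibitory lectin receptor of myeloid cells, had 0, 1, 2, 3 and 0 counts in Kat6a WT and 8, 11 and 6 in Kat6a KO. The Fc receptor gene Fcgr4 had no read in any Kat6a WT heart and 3, 2 and 11 in Kat6a KO. Cd163, Marco and Ms4a7, other macrophage genes, had at most 5 counts in any heart.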
